A study of Mus musculus with 14 samples.

Results

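The genes described here encode J-domain proteins, the partners that bring clients to Hsp70 chaperones, and the subunits of the TRiC/CCT chaperonin. They were chosen by name: every symbol made of Dnaja, Dnajb or Dnajc and a number, together with Tcp1 and Cct2 to Cct8, where Cct6a and Cct6b were both taken. Dnajb9 and pseudogene names were left out. The rule found 53 of the 27781 named genes in the deposited table, of which 44 are J-domain genes and 9 are chaperonin genes. All 53 passed the filter on low values.

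J-domain proteins bind unfolded or assembled proteins and stimulate the ATPase of Hsp70, and their remaining domains set which client and which compartment the Hsp70 serves. Class A and class B members mostly serve general folding in the cytosol and nucleus, while class C members are specialists, among them the synaptic vesicle protein encoded by Dnajc5 and the clathrin uncoating factor encoded by Dnajc6. The TRiC/CCT chaperonin is a double ring of related subunits that folds actin, tubulin and other proteins inside its cavity. In neurons these chaperones are best known for protecting synapses and for limiting the aggregation of misfolded proteins.

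RNA was measured with SmartSeq libraries from neuronal nuclei of the medial entorhinal cortex of mice, and the study set young animals against aged ones beside electrophysiological recordings. The young group held 7 libraries, numbered 2, 3, 11, 16, 17, 18 and 19, and the aged group held 7, numbered 3, 4, 5, 6, 7, 12 and 13. The labels give age under the tag genotype and name no other allele, treatment, strain, sex or age in months, and they do not tie a library to an animal, so the p-values reflect the spread among these libraries and no more. The values are the authors' normalized values per gene, so read depth is unknown and no counting interval was given.

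The libraries stood apart in 2 sets that cut across age. Libraries numbered 2 to 7 (2 young and 5 aged) had 21152 to 22812 genes above 0 and Xist values of 7378 to 25459, and libraries numbered 11 to 19 (5 young and 2 aged) had 25263 to 25615 genes above 0 and Xist values of 0 to 5.13. The first principal component, with 69.6% of the variance, separated the sets, and the labels name no sex or batch. The age difference was therefore fitted with a term for the set, and values from age alone or from within each set stand beside some of the results. Neurons were checked by 7 markers, all of which were above 0 in every library, with a summed level of 122659 to 167297 in young and 109851 to 199184 in aged libraries. Markers of other cells were present too. The 6 astrocyte markers, all above 0 in every library, summed to 3628 to 6572 in young and 2728 to 9050 in aged libraries. The 6 oligodendrocyte markers summed to 3084 to 8980 and 4669 to 16271, and the 6 microglia markers to 669 to 3348 and 756 to 4408, again with none at 0.

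Stretches around annotated start sites are shown first. Heat shock factor, the regulator best known for switching on cytosolic chaperone genes, binds repeated GAA units near such sites. RefSeq promoter windows (GRCm38.p6), which run from 250 bases before to 50 bases after a start site, matched 44 of the 53 genes in 59 windows. They were searched for a facing or a diverging pair of units, GAANNTTC or TTCNNGAA, each of which reads the same on both strands. A pair was found in 11 of the 59 windows (18.6%) beside 15.1% of all 32851 RefSeq windows. Among the chaperonin genes 3 of 8 had one, namely Cct2, Cct5 and Cct6a. A run of 3 units, GAANNTTCNNGAA or TTCNNGAANNTTC, in which pairs overlap, was found for Dnajb6 alone, in both of its overlapping windows, and in 0.603% of all windows. Dnajb1 and Cct7 had no match in their windows, which says only that these letters are not there. For 2 chaperonin and 2 J-domain genes 1 window with a match is printed 5′ to 3′ on the gene's own strand, with the matched bases in capitals. The other windows of Cct2, Cct5 and Dnaja1 had no match. The printed windows of Cct2 and Dnaja1 lie inside the annotated span of the gene, as does the match of Dnajb6. These windows therefore belong to start sites within the genes. The matches are descriptions of letters and not of bound sites.
Cct2, chr10:117063326-117063625, minus strand: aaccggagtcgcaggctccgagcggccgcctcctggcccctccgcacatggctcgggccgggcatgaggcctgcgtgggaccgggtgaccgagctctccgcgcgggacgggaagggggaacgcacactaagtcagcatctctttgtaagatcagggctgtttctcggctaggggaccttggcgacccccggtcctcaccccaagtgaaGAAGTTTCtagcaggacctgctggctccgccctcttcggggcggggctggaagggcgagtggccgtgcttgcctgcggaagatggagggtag
Cct5, chr15:31601797-31602096, minus strand: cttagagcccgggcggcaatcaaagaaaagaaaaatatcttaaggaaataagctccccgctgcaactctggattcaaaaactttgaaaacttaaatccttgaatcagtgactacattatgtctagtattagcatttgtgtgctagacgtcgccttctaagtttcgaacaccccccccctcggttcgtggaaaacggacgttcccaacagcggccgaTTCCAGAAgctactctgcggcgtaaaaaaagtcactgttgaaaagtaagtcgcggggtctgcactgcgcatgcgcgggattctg
Dnaja1, chr4:40722218-40722517, plus strand: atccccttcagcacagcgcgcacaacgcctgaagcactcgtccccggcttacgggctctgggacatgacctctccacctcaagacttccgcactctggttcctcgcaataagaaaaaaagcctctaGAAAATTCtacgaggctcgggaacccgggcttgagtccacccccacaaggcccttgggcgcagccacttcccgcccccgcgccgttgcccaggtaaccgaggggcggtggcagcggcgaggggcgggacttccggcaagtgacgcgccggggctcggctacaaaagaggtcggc
Dnajb6, chr5:29735648-29735947, plus strand: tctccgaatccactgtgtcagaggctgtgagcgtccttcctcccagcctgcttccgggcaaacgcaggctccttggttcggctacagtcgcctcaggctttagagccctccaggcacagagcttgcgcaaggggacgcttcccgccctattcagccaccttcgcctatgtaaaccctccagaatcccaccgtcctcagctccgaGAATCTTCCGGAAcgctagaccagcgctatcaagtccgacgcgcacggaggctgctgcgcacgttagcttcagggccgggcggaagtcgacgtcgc

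Levels were compared between genes per kilobase of 1 annotated transcript each, over all 14 libraries. Whether reads from introns were counted in these nuclei is not stated, so the order between genes is uncertain. Of the 31-base stretches of Dnajc19, Dnajb6 and Dnajc8, 37.7%, 43.8% and 21.2% also occur in other genes. The highest mean levels per kilobase belonged to Dnajc19, a part of the mitochondrial import motor (1607 ± 551, SD, n = 14), Dnajc6, which encodes the neuronal clathrin uncoating factor auxilin (1510 ± 269), Dnajb6, which encodes a suppressor of protein aggregation (1399 ± 386), and Dnajc8, a splicing-associated gene (1353 ± 305). These 4 differed from each other by less than their SDs, and their order turned with the group: Dnajc6 led in young libraries (1561, with Dnajc19 at 1282) and Dnajc19 in aged ones (1932, with Dnajc6 at 1459). Cct5 was highest among the chaperonin genes at 1138 ± 250, followed by Cct8 at 1067 ± 274, Cct3 at 968 ± 249, Cct7 at 752 ± 206, Tcp1 at 723 ± 156, Cct4 at 496 ± 139 and Cct2 at 492 ± 121. Neighbours in that order differed by less than the larger SD, with Tcp1 and Cct4 as the exception. Cct6a stood well under its partners at 120 ± 49.5 per kilobase, and no library of Cct6a (55.4 to 229) reached the lowest library of Cct2 (274) or Cct4 (302). Cct6b, a subunit known for its testis expression, lay at 113 ± 101. Lowest of all were Dnajb13, Dnajc22, Dnajb7, Dnajb3 and Dnajc5g, with means of 8.06 to 29.9 per kilobase, and 4 of them had at least 1 library at 0, Dnajc22 being the exception.

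**Figure D1:**
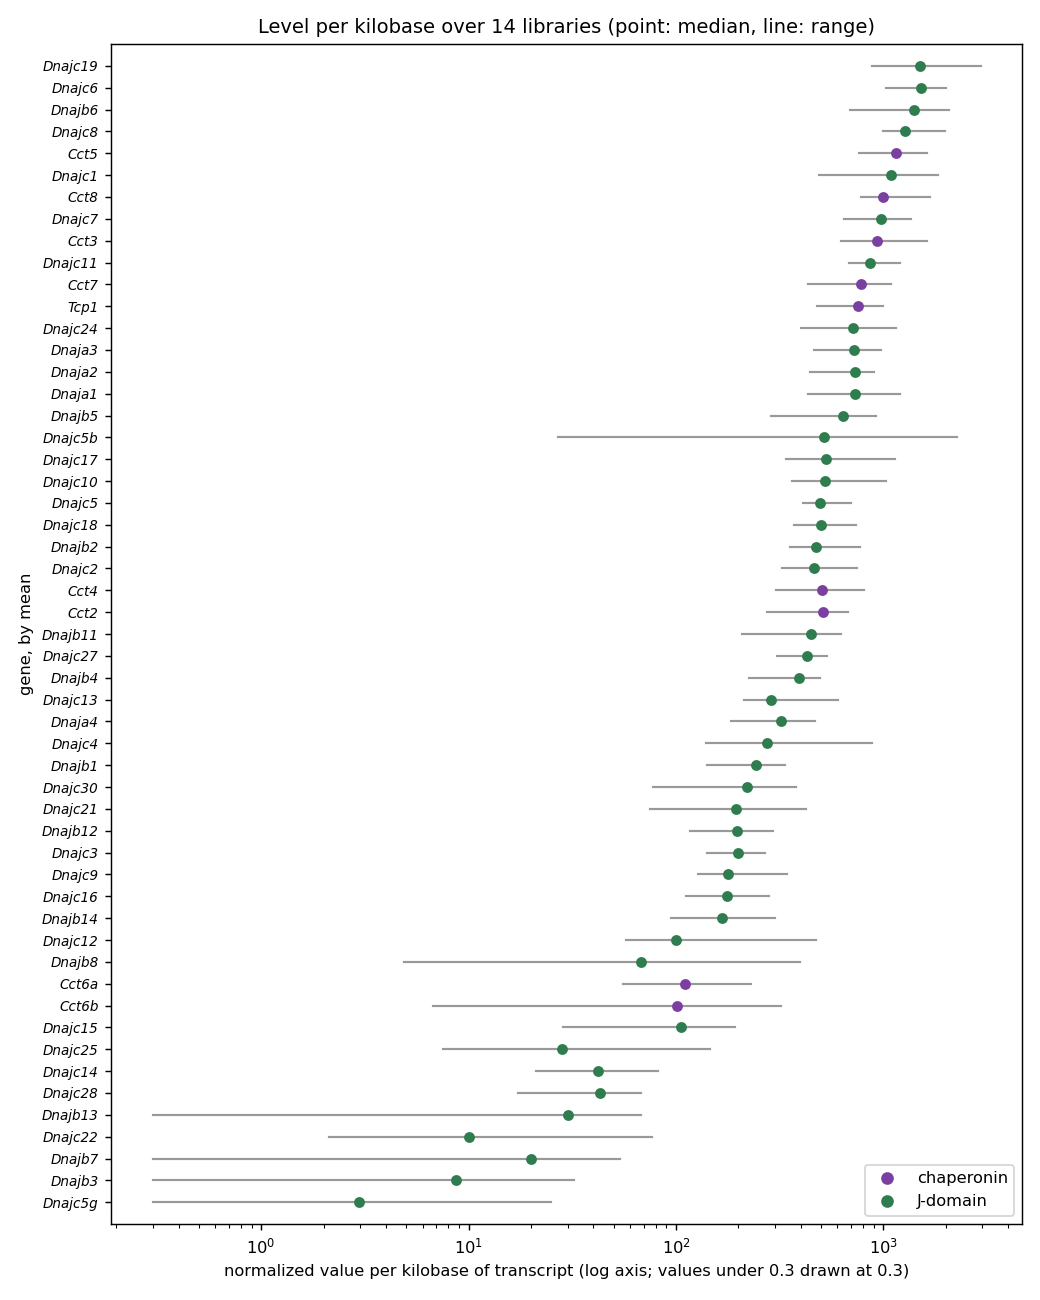
Normalized value per kilobase of transcript (log axis) of each of the 53 genes, in order of the mean, with a point for the median and a line for the range over 14 libraries (values under the axis start are drawn at its edge). Dnajc19 leads at a mean of 1607, most chaperonin genes lie between 492 and 1138, and Cct6a and Cct6b lie at 120 and 113.

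The comparison of age groups addressed how folding genes differ with age in these nuclei. None of the J-domain or chaperonin genes passed an adjusted p under 0.05. The smallest adjusted p (limma, Benjamini-Hochberg over 24554 genes) was 0.256, for Dnajc25. The background was low as well: 2 of the 24554 genes passed (0.00815%), 1 in each direction. In 34 of the 53 genes the difference, given here as aged minus young in log2(value + 1), was positive, with a median of 0.15, beside 37.5% positive and a median of -0.16 over all genes tested. At an unadjusted p under 0.05, 7 of the 53 genes were on the higher side and 0 on the lower side (background 4.03% and 9.03%), and these 7 are Dnajc25, Dnajc15, Dnajb1, Cct4, Cct7, Cct5 and Dnaja1. That count was 2 without young library 3 or without aged library 13 (3.68% and 3.03% of all genes) and 13 without aged library 12 (5.62%). It was 4 without young library 11 or 16 (3.43% and 3.40%). With age alone 6 genes were on the higher side and 3 on the lower (background 6.50% and 17.6%). Young and aged libraries overlapped in all 53 genes, where 0.138% of all genes were separate and higher in aged and 0.0733% separate and lower.

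**Figure D2:**
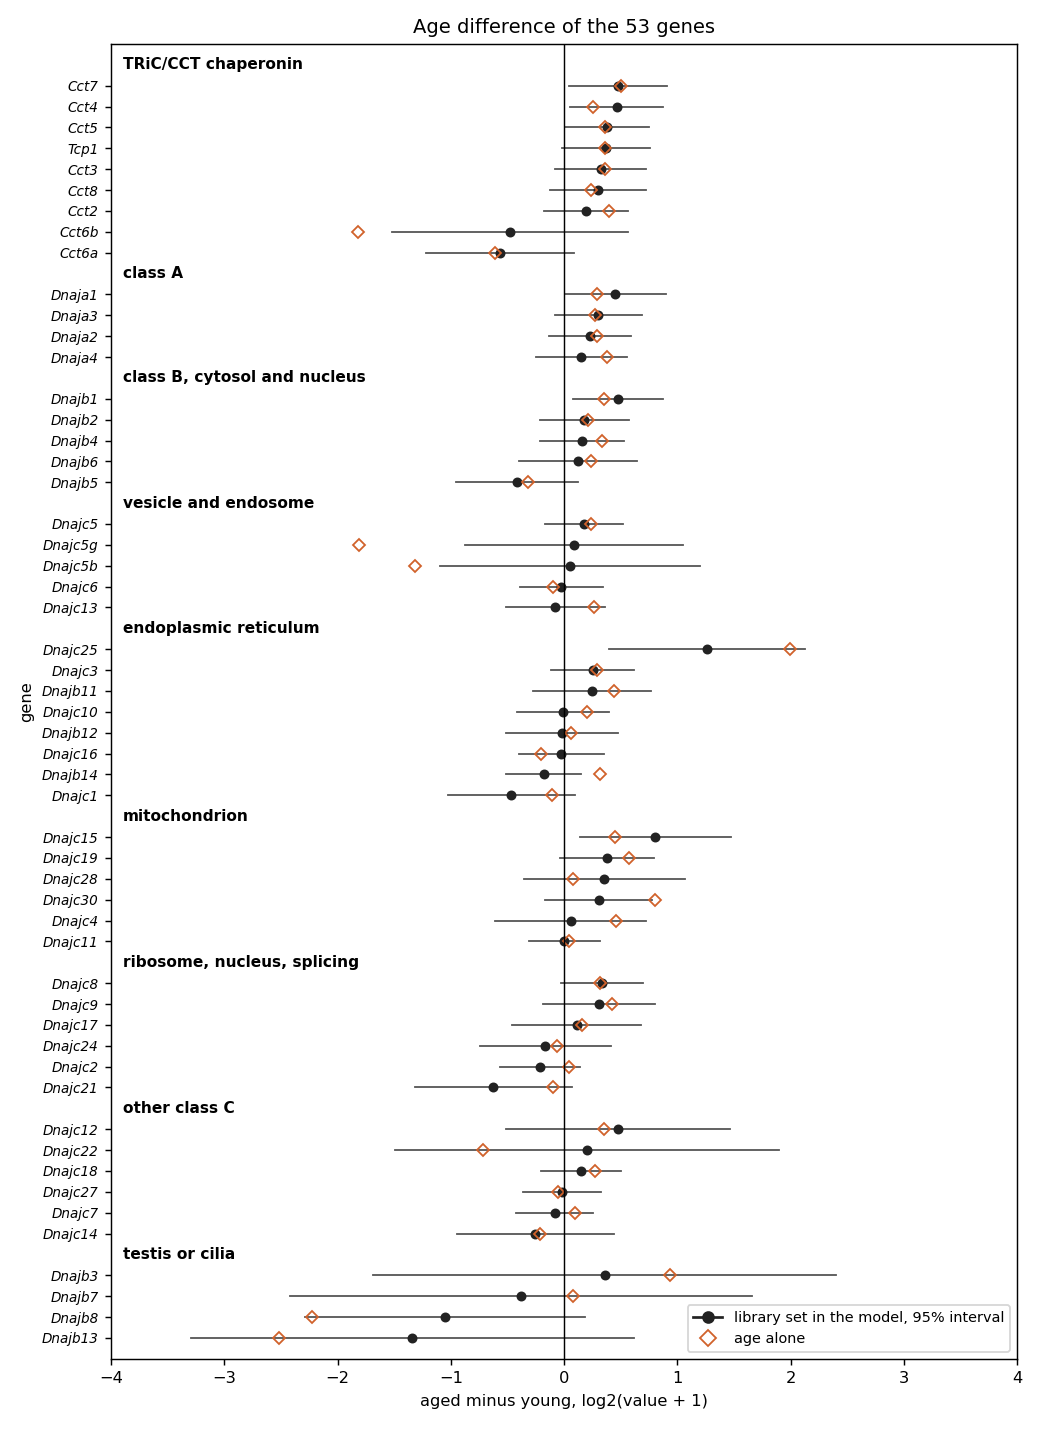
Difference between aged and young means of log2(value + 1) (x axis) for each of the 53 genes grouped by role, with the set as a term (filled points, 95% interval) and with age alone (open diamonds). The intervals of 7 genes lie wholly above 0, none lies wholly below, and the fits stand furthest apart for Cct6b, Dnajc5g and Dnajc5b.

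Highly expressed genes were compared separately. Over the 9703 genes with a mean of 500 or more, a limit chosen after the data were seen, 43.1% of differences were positive with a median of -0.064, beside 25 of 37 J-domain and chaperonin genes with a median of 0.16. In that range 6.18% of all genes and 6 of the 37 had an unadjusted p under 0.05 on the higher side. Scaling each library to the same total moved the median of all genes from -0.16 to -0.037 and that of the 53 genes from 0.15 to 0.28, and 12 of the 53 then had an unadjusted p under 0.05 on the higher side, beside 6.98% of all genes.

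Among the 9 chaperonin genes, 7 had a positive difference and 2 a negative one, with a median of 0.32 and none past the threshold. The split of 7 and 2 was the same with age alone and within each library set. Cct7 (chromosome 6, 85451514 to 85468475, plus strand, mm10) ran from 1058 through a median of 1526 to 2197 in young libraries and from 1589 through 2089 to 2656 in aged ones. Its groups overlapped, with young libraries 17 and 18 inside the aged range. The means were 1532 ± 422 and 2137 ± 395 (SD, n = 7 each), a log2 difference of 0.47 (standard error 0.20, limma adjusted p = 0.345), and the difference was 0.47 in libraries 2 to 7 and 0.48 in libraries 11 to 19. Cct7 had the largest positive difference of the 9 genes with the set as a term, while Cct6a and Cct6b had negative ones of larger size.

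Cct5 (chromosome 15, 31590800 to 31601804, minus strand) ran from 1413 through 1793 to 2450 in young and from 1870 through 2308 to 2994 in aged libraries. Again young libraries 2, 17 and 18 reached into the aged range. Its means were 1850 ± 385 and 2367 ± 400, and its log2 difference was 0.38 (standard error 0.17, limma adjusted p = 0.372). Cct4 (chromosome 11, 22990519 to 23003780, plus strand) overlapped more widely, from 750 through 996 to 1774 in young and from 919 through 1277 to 2001 in aged libraries. Its log2 difference was 0.46 (standard error 0.19, limma adjusted p = 0.332) with the set as a term and 0.26 with age alone, and Cct4 was itself higher in libraries 11 to 19 (log2 difference between sets 0.48, limma adjusted p = 0.0473). Tcp1, which encodes the first described subunit, had means of 1570 ± 405 in young and 1966 ± 245 in aged libraries (log2 difference 0.37, limma adjusted p = 0.402). Cct3 had a log2 difference of 0.32, Cct8 of 0.29 and Cct2 of 0.19, with adjusted p from 0.467 to 0.643 in limma.

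Cct6a (chromosome 5, 129786998 to 129846371, plus strand) went the other way. It ran from 193 through 342 to 562 in young libraries and from 136 through 218 to 349 in aged ones. The ranges overlapped, with young libraries 2, 11 and 19 above every aged one. Means of 359 ± 132 and 231 ± 70.5 gave a log2 difference of -0.56 (standard error 0.31, limma adjusted p = 0.439), which was -0.89 in libraries 2 to 7 and -0.24 in libraries 11 to 19. Cct6b had a negative difference of -0.48 with the set as a term and -1.82 with age alone, and its values followed the library sets, as given further on.

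As a sum per kilobase over the 8 chaperonin genes other than Cct6b, young libraries ran from 4117 to 6898 (5119 ± 989, SD, n = 7) and aged libraries from 5059 to 8092 (6393 ± 1093). The 3 highest sums belonged to aged library 3 (8092), aged library 13 (7693) and young library 18 (6898). Aged library 12 had the lowest aged sum at 5059, so the 2 aged libraries of the higher-numbered set lay far apart. Within the sum Cct5 made up 19.5 ± 1.42% in young and 20.0 ± 0.749% in aged libraries, Cct8 19.02 ± 1.58% and 17.9 ± 2.07%, and Cct7 12.1 ± 1.39% and 13.7 ± 0.615%. Cct6a made up 3.02 ± 1.37% and 1.56 ± 0.690%, from 0.685 to 4.98% over all libraries. In these bulk libraries fewer nuclei of a type and less RNA per nucleus cannot be told apart. The 6 oligodendrocyte, 6 astrocyte and 6 microglia markers all had positive age differences with the set as a term (medians 1.003, 0.71 and 0.65). With age alone 4, 5 and 4 of the 6 were positive, in that order, with medians of 0.35, 0.46 and 0.17. With the set as a term, 5 of 7 neuron markers were positive (median 0.17). So were 2 of 4 endothelial markers (0.024) and 2 of 3 oligodendrocyte precursor markers (0.82). With age alone these counts were 6, 1 and 2, with medians of 0.35, -0.55 and 0.80. The 4 ependymal markers are given further on. The part of these markers' cells in the chaperonin values was not tested.

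**Figure D3:**
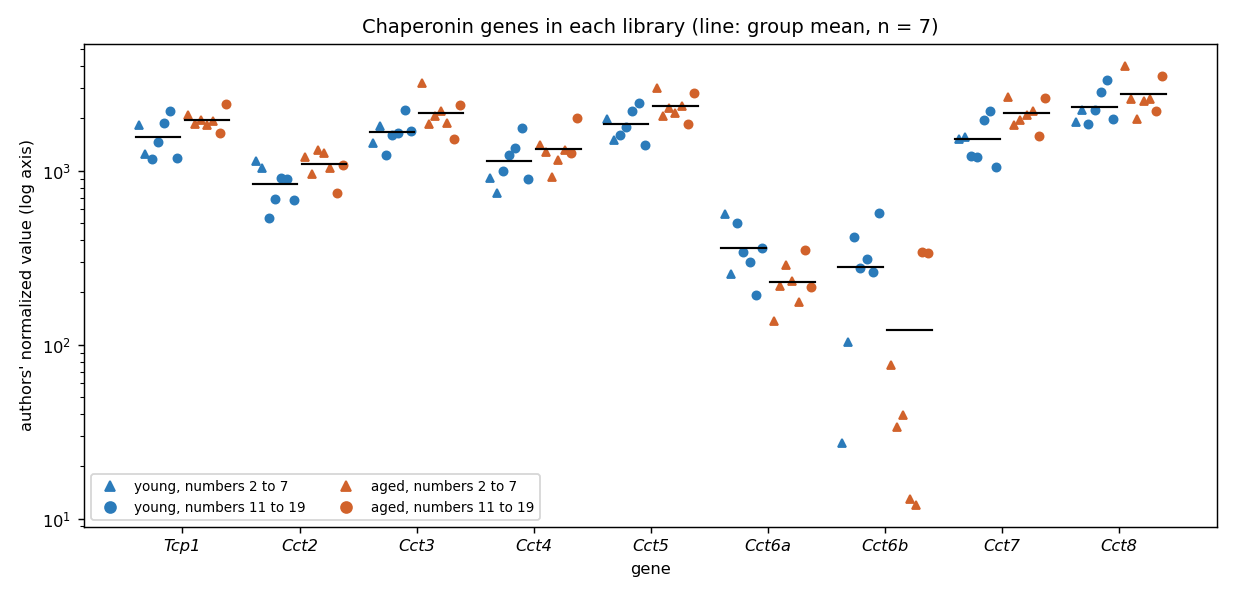
Authors' normalized value (log axis) of the 9 chaperonin genes in each of 7 young and 7 aged libraries, with triangles for libraries numbered 2 to 7, circles for 11 to 19 and lines for group means. The aged mean lies above the young mean in 7 genes and below it in Cct6a and Cct6b, where Cct6b splits by symbol (27.2 to 103 in young triangles, 260 to 575 in young circles).

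The 4 class A genes, which carry the zinc-binding domain of the bacterial DnaJ protein, all had positive differences, with a median of 0.26. Dnaja1 (chromosome 4, 40722150 to 40737149, plus strand), a main cytosolic partner of Hsc70, ran from 2426 through 3545 to 4761 in young and from 2893 through 4177 to 6780 in aged libraries. Aged library 13 alone stood above all young libraries. The log2 difference was 0.45 (standard error 0.21, limma adjusted p = 0.378), and 0.29 with age alone. Dnaja3, whose product works in mitochondria, measured 1713 ± 431 and 2031 ± 285 (log2 difference 0.30, limma adjusted p = 0.478), and Dnaja2, another cytosolic member, 1858 ± 334 and 2268 ± 381 (0.23, limma adjusted p = 0.565).

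Of the 5 class B genes of cytosol and nucleus, 4 had positive differences, with a median of 0.16. Dnajb1 (chromosome 8, 83608193 to 83612653, plus strand) encodes Hsp40, the heat-inducible partner of Hsp70. It ran from 422 through 627 to 913 in young libraries and from 675 through 784 to 1006 in aged ones. Young libraries 16, 18 and 19 lay within the aged range. Means of 649 ± 162 and 815 ± 128 gave a log2 difference of 0.47 (standard error 0.19, limma adjusted p = 0.317), which was 0.72 in libraries 2 to 7 and 0.23 in libraries 11 to 19. Dnajb2, a neuronal member that steers clients to the proteasome, differed by 0.18 on the log2 scale (limma adjusted p = 0.694). Dnajb6 had 0.13 (limma adjusted p = 0.847), and its sign turned to -0.13 in one of the cases that left out a library, the one without aged library 13. Dnajb5 had the negative difference in this class, -0.42 (standard error 0.25, limma adjusted p = 0.481), with means of 2207 ± 500 in young and 1834 ± 641 in aged libraries.

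Of the 5 genes of synaptic vesicles and endosomes 3 had positive differences, with a median of 0.048, and with age alone 2 were positive with a median of -0.098. Dnajc5b and Dnajc5g, relatives of Dnajc5 whose levels followed the library sets, had 0.048 (95% interval -1.10 to 1.196) and 0.086 (-0.88 to 1.05), and -1.31 and -1.81 with age alone. Dnajc5 encodes cysteine string protein, which keeps the release machinery folded at nerve terminals. It ran from 2724 through 2901 to 4179 in young libraries and from 2685 through 3410 to 4612 in aged ones. Aged libraries 3, 4 and 6 lay above every young library and aged library 5 below, while the other aged libraries lay inside the young range. The log2 difference of 0.18 had a 95% interval of -0.17 to 0.52 (limma adjusted p = 0.648). Dnajc6, the auxilin gene, ran from 6009 through 7953 to 10647 in young and from 5459 through 8170 to 9610 in aged libraries. Its difference was -0.024 (95% interval -0.39 to 0.34, limma adjusted p = 0.964), and it turned to 0.11 when libraries were scaled to equal totals. Dnajc13, which encodes the endosomal sorting factor RME-8, had -0.080 (95% interval -0.52 to 0.36, limma adjusted p = 0.888), 0.053 with equal totals, and 0.26 with age alone.

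**Figure D4:**
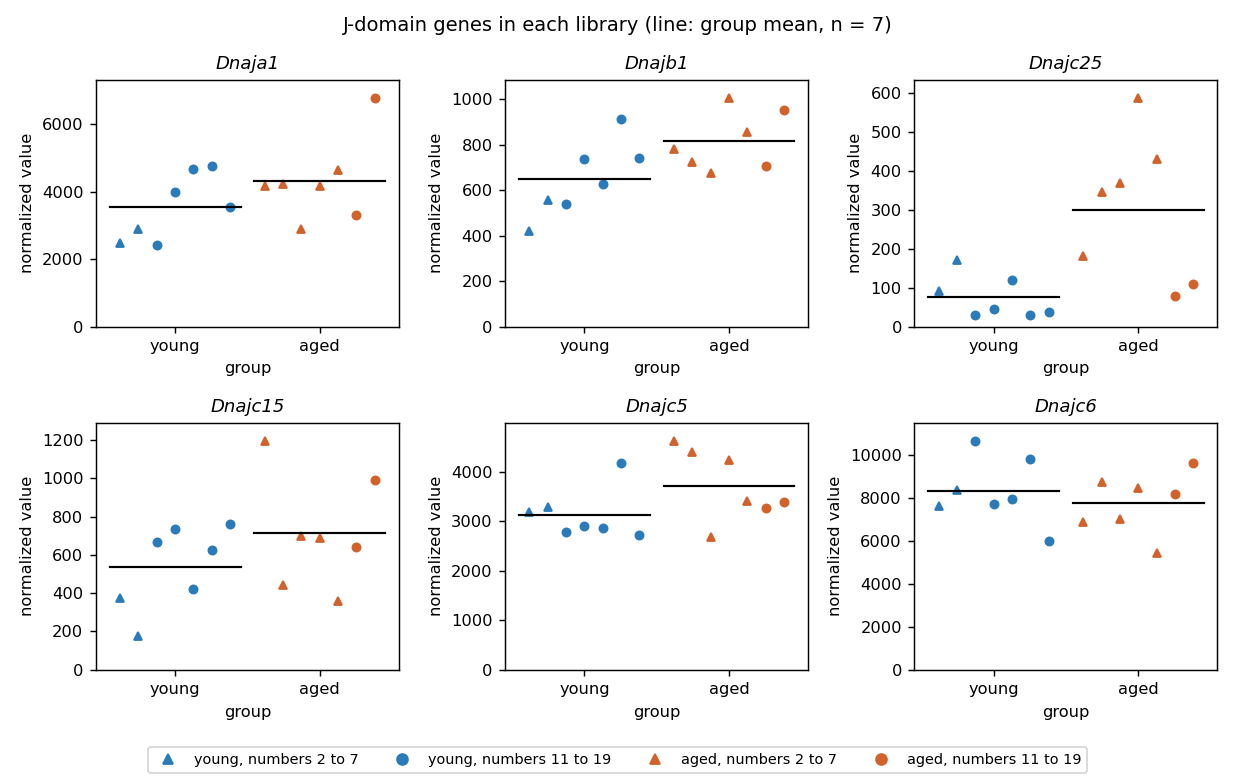
Authors' normalized value (y axis from 0) of Dnaja1, Dnajb1, Dnajc25, Dnajc15, Dnajc5 and Dnajc6 in each of 7 young and 7 aged libraries, with triangles for libraries numbered 2 to 7, circles for 11 to 19 and lines for group means. Dnajc25 has means of 74.7 in young and 300 in aged libraries with its highest points among aged triangles, while Dnajc6 has nearly equal means.

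The 8 genes of the endoplasmic reticulum list held the gene with the smallest p, and 3 had positive differences with a median of -0.015. With age alone 6 of the 8 were positive with a median of 0.25, and in libraries 2 to 7 alone 5 were, with a median of 0.14. Dnajc25 (chromosome 4, 58995062 to 59025573, plus strand) encodes a J-domain protein with membrane-spanning segments. Its young values were 91.4, 171, 30.2, 44.3, 119, 30.5 and 36.7 in libraries 2, 3, 11, 16, 17, 18 and 19. Its aged values were 182, 345, 369, 586, 430, 77.2 and 108 in libraries 3, 4, 5, 6, 7, 12 and 13. All 5 aged libraries of the lower-numbered set lay above every young library, and aged libraries 12 and 13 lay inside the young range. Means were 74.7 ± 54.4 and 299.7 ± 185 (SD, n = 7 each), with a log2 difference of 1.26 (standard error 0.41, limma adjusted p = 0.256). It was 1.99 with age alone, 1.51 in libraries 2 to 7 and 1.01 in libraries 11 to 19. Over the 14 cases that left out a library it stayed between 1.03 and 1.44. Of the 31-base stretches of the Dnajc25 transcript 11.1% also occur in other genes, most of all in Gm20503. That annotated gene overlaps Dnajc25 on the same strand and has its own row. That row ran from 338 to 783 with means of 568 ± 177 in young and 498 ± 153 in aged libraries (log2 difference -0.24, limma adjusted p = 0.716).

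Dnajc1, an Hsp70 partner at the membrane of the endoplasmic reticulum, measured 6122 ± 2146 in young and 5977 ± 2750 in aged libraries, with a log2 difference of -0.47 (standard error 0.26, limma adjusted p = 0.452). Dnajc10, a disulfide reductase of that compartment, had -0.010 (limma adjusted p = 0.986), and its sign turned under 11 of the 26 alternatives. Dnajb11 and Dnajc3, chaperones of its lumen, had 0.24 and 0.25, and Dnajb11 had 0.62 in libraries 2 to 7 and -0.13 in libraries 11 to 19.

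All 6 mitochondrial genes had positive differences, with a median of 0.33. With age alone all 6 were positive (median 0.45), and in libraries 2 to 7 alone 5 were (median 0.27). Dnajc15 (chromosome 14, 77820681 to 77875125, minus strand), a regulator of the import motor, ran from 176 through 624 to 761 in young and from 361 through 687 to 1193 in aged libraries. The groups overlapped, and aged libraries 3 and 13 alone exceeded the young range. The log2 difference was 0.80 (standard error 0.31, limma adjusted p = 0.311) with the set as a term and 0.45 with age alone, and Dnajc15 was also higher in libraries 11 to 19, which hold 5 of the 7 young libraries (log2 difference between sets 0.82, limma adjusted p = 0.0370). Dnajc19, also of the import motor, measured 845 ± 196 and 1273 ± 375 (log2 difference 0.38, standard error 0.20, limma adjusted p = 0.418). The difference was 0.57 with age alone. Dnajc11, which is linked to the shape of the inner membrane, had 0.00081 (95% interval -0.31 to 0.31, limma adjusted p = 0.999). The sign of Dnajc11 turned under 10 of the 26 alternatives.

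Of the 6 genes for ribosomes, the nucleus and splicing, 3 were positive and 3 negative, with a median of -0.028, and with age alone 4 were positive with a median of 0.10. Dnajc8 measured 1671 ± 205 in young and 2120 ± 486 in aged libraries (log2 difference 0.33, standard error 0.17, limma adjusted p = 0.418). Dnajc21, a factor for making the large ribosomal subunit, ran from 155 through 271 to 872 in young and from 175 through 474 to 497 in aged libraries. Its difference was -0.63 (standard error 0.33, limma adjusted p = 0.420) with the set as a term and -0.10 with age alone. Dnajc2, which works at the ribosome, had -0.21 (limma adjusted p = 0.584) and 0.045 with age alone. Among the remaining class C genes, Dnajc12, whose product binds the aromatic amino acid hydroxylases, had 0.48 (standard error 0.47, limma adjusted p = 0.670), and Dnajc18 and Dnajc7 had 0.15 and -0.084.

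The testis or cilia list had 1 of 4 differences positive and a median of -0.72, and with age alone 2 of 4 were positive with a median of -1.07. Dnajb8 measured 184 ± 120 in young and 79.0 ± 139 in aged libraries (log2 difference -1.05, standard error 0.58, limma adjusted p = 0.446), and Dnajb13, a component of ciliary radial spokes, 112 ± 59.1 and 42.4 ± 53.2 (-1.34, standard error 0.92, limma adjusted p = 0.530). With age alone these differences were -2.22 and -2.52, both with an unadjusted p under 0.05 on the lower side, as in 17.6% of all genes. Both genes were higher in libraries 11 to 19 than in libraries 2 to 7, with means of 234 against 29.0 for Dnajb8 (limma adjusted p = 0.000926) and 125 against 30.2 for Dnajb13 (limma adjusted p = 0.0196). Of the 4 ependymal markers 3 had negative age differences, with a median of -0.79 with the set as a term and -1.11 with age alone. In each case 1 of these markers had an unadjusted p under 0.05 on the lower side, beside 9.03% and 17.6% of all genes. Their summed level ran from 72.7 to 797 in young and from 130 to 361 in aged libraries, with Foxj1 at 0 in 2 libraries and Ccdc153 at 0 in 1 library. Their part in the cilia gene values was not tested.

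More of these genes passed the threshold between the library sets than between the age groups. Comparing libraries 11 to 19 with libraries 2 to 7, with age in the model, 8 of the 53 genes were higher and 12 lower at an adjusted p under 0.05 in limma, beside 36.5% and 15.5% of all genes tested. The genes named for this comparison were chosen after their values were seen. Dnajc5g, a testis relative of Dnajc5, was listed at 0 in 6 of the 7 libraries numbered 2 to 7 and at 0.881 in the other, and it ran from 8.43 to 39.2 in libraries 11 to 19 (limma adjusted p = 1.51e-06). Dnajc5b, a second such relative, ran from 28.0 to 376 in libraries 2 to 7 and from 699 to 2351 in libraries 11 to 19, a log2 difference of 3.18 (standard error 0.54, limma adjusted p = 0.000136). Cct6b ran from 11.99 to 103 and from 260 to 575 (log2 difference 3.13, standard error 0.49, limma adjusted p = 6.38e-05). None of these 3 genes had sets that overlapped, as was so on the higher side for 23.0% of all genes tested.

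Genes of the endoplasmic reticulum and mitochondria were among those lower in libraries 11 to 19. Dnajb14, a membrane protein of the endoplasmic reticulum, ran from 1841 to 2853 in libraries 2 to 7 and from 895 to 1301 in libraries 11 to 19 (log2 difference -1.16, standard error 0.16, limma adjusted p = 1.72e-05). Dnajc30, a mitochondrial gene, ran from 409 to 627 and from 129 to 323 (-1.15, standard error 0.22, limma adjusted p = 0.000416). Both genes had sets that did not overlap, as was so on the lower side for 4.88% of all genes tested. Dnajc25 was lower there by the same test (-1.71, limma adjusted p = 0.00222), as were Dnajc21 (-1.23, limma adjusted p = 0.00469), Dnajc13 (-0.79, limma adjusted p = 0.00423) and Cct2 (-0.47, limma adjusted p = 0.0347). No age difference among the 53 genes differed between the sets by the limma interaction term at an adjusted p under 0.05. Dnajc24, which is needed for the diphthamide mark on elongation factor 2, had the one unadjusted p under 0.05 (limma adjusted p = 0.9997), beside 3.62% of all genes.

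**Figure D5:**
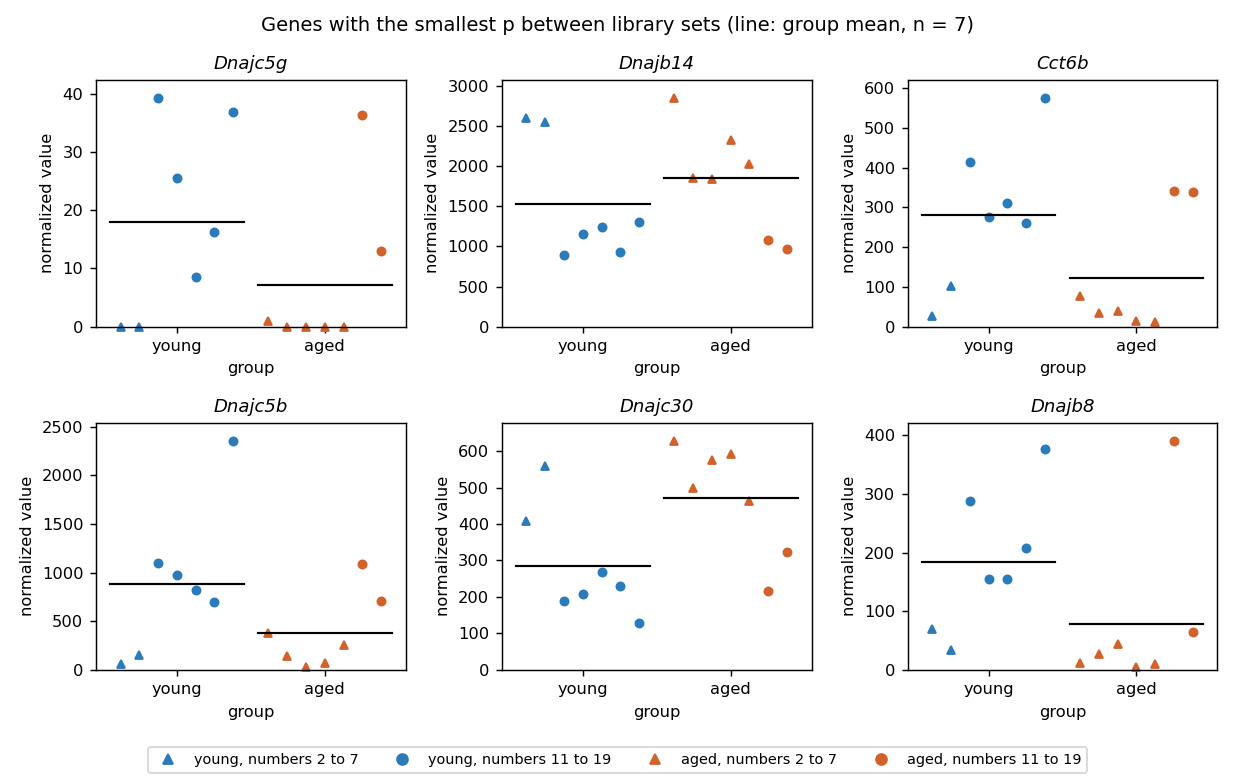
Authors' normalized value (y axis from 0) of the 6 genes with the smallest p between library sets, in each of 7 young and 7 aged libraries, with triangles for libraries numbered 2 to 7, circles for 11 to 19 and lines for group means. Circles lie above triangles in Dnajc5g, Cct6b and Dnajc5b and below them in Dnajb14 and Dnajc30, whichever the age group.

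Genes that work with these chaperones were read from 4 further lists, and none of their members passed an adjusted p under 0.05 in limma. Of the 12 Hsp70 and Hsp110 genes 9 had positive differences, with a median of 0.29 (0.17 with age alone), and 2 had an unadjusted p under 0.05 on the higher side, where 4.03% of all genes did: the constitutive Hsp70 gene Hspa8, at 17303 ± 7692 in young and 22719 ± 5612 in aged libraries (log2 difference 0.67, limma adjusted p = 0.316), and Hspa13 (0.48, limma adjusted p = 0.321). Of the 9 chaperonin helpers, the prefoldin and phosducin-like genes that deliver or modulate clients, 7 were positive with a median of 0.13 (0.28 with age alone). The smallest p among them belonged to Pfdn1, a prefoldin subunit (0.51, limma adjusted p = 0.418), and Txndc9 (0.29, limma adjusted p = 0.455). Of the 8 genes for Hsp90, its partners and heat shock factors 6 were positive with a median of 0.25, and with age alone all 8 were, with a median of 0.39. The smallest p in that list belonged to the Hsp70 to Hsp90 adaptor gene Stip1 (0.41, limma adjusted p = 0.458), and the largest difference to the heat shock factor gene Hsf1 (0.51, limma adjusted p = 0.642). Among the 4 J-domain genes without a Dnaj name, Sec63, of the protein translocon, had 0.54 (limma adjusted p = 0.331) and Gak, the broadly expressed relative of auxilin, -0.15 (limma adjusted p = 0.735).

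An adjusted p was given for 51 of the 53 genes in the authors' deposited table. None of these was under 0.05, beside 2.41% of the 21253 genes with one in the authors' deposited table. The smallest adjusted p in the authors' deposited table was 0.101, for Dnajc25, with a log2 fold change of 1.205. By the unadjusted p, 8 of the 53 genes were higher and 2 lower in the authors' deposited table (background 4.29% and 10.2%), the latter being Dnajc21 (log2 fold change -0.76) and Cct6a (-0.61).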

How the data were processed

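SmartSeq libraries from neuronal nuclei of the medial entorhinal cortex (7 young and 7 aged) were grouped by the labels. The submitters' processing notes name STAR, kallisto, DESeq2 and the build mm10 without roles or versions. Filters, annotation, strandedness, the use of introns and model terms were not stated there. The library columns hold the authors' normalized signal per gene as deposited. The values are not whole and have a common median ratio to the geometric mean. A shift shared by most genes that enter this ratio would therefore not appear. Over all genes tested the median age difference was -0.16 and 37.5% were positive. The authors' log2 fold changes, their test score and their p-values were deposited in the same table and are quoted only as the authors' own. A row without a name (1) was left out, 27 names that had become dates were kept as they stood, and 0 value columns were unmapped.

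Differences were fitted to log2(value + 1), which understates changes of low genes, with limma 3.58.1 under R 4.3.3 (linear models, trended empirical Bayes). The 24554 genes fitted reached 1 or more in 7 or more libraries. Age and the library set (numbers 2 to 7 against 11 to 19) were terms, p-values were adjusted by Benjamini-Hochberg over all genes tested, and the threshold was 0.05. The fit was tested on simulated data with differences larger than those of most J-domain and chaperonin genes, so smaller ones were not tried. Alternatives were age alone, each set alone, pseudocounts of 0.5 and 10, filters, scaling to equal upper quartiles or totals, no trend, sample weights and leaving out each library. A filter at a mean of 500 was added after the data were seen. Per-kilobase levels used 1 principal transcript per gene in GENCODE M21 on mm10, and promoter windows came from RefSeq (GRCm38.p6).

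Members, role lists, partner lists, markers and library sets were chosen with earlier results of these data known. Genes were named by rule: any with an adjusted p under 0.05 for age or without overlap, the 2 with the smallest p and the 2 with the highest mean in each role list, a fixed list (Dnaja1, Dnajb1, Dnajb2, Dnajb6, Dnajc5, Dnajc6, Dnajc13, Tcp1, Cct2, Cct3, Cct4, Cct5, Cct6a, Cct6b, Cct7 and Cct8), and at most 2 in each partner list. Dnajb11, Dnajc3, Dnajc24, Dnajc5b, Dnajc5g, Hsf1 and the genes named for the library sets were chosen after their values were seen.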

Additional observations from a re-analysis of the deposited data

Results flagged for a closer look

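In each gene the 7 young and the 7 aged libraries were examined for a library far from the others, its gap to the nearest divided by the range of the group. Of 106 groups 16 held one. The share of about 5% given by chance cannot be set against this count. Each group pools both library sets, and the groups share the same libraries. The cause of these gaps was not tested.

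Young library 2 stood apart on the high side in 4 genes, at 1583 for Dnajc2, 4818 for Dnajc13, 4175 for Dnajc10 and 3792 for Dnajc11, where the next highest young values were 1079, 2526, 2123 and 2748. Aged library 3 stood apart on the high side in 4 genes, at 1428 for Dnajb2, 1437 for Dnajc12, 119 for Dnajc22 and 743 for Dnajc4. Aged library 12 stood apart on the high side for Dnajb8 at 390 and Dnajc5g at 36.4 and on the low side for Dnajb11 at 533. Young library 18 stood apart on the high side for Dnajc5 at 4179 and Dnajb2 at 1232. Single cases were Dnajc12 in young library 17 at 950, Dnajc10 in aged library 5 at 3555 and, on the low side, Dnajc11 in aged library 6 at 2154. No chaperonin gene had such a library in either group.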

How the results depend on the processing

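No J-domain or chaperonin gene passed an adjusted p under 0.05 in limma under any of the 26 alternatives, 14 of which left out a library, and the smallest adjusted p among them was 0.180. The chaperonin genes kept a split of 7 positive in every alternative with all 9, and all 7 at a mean of 500 or more were positive. No paired analysis was possible because the young and aged groups share only the library number 3, which the labels do not tie to a pair. Depth is unknown, the sets hold 2 libraries of one age group each, and so within-set values rest on few samples.

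The count of all genes past the threshold, 2 in the model with the set, was 1 with age alone, 60 in libraries 2 to 7, 5 in libraries 11 to 19, 11 with a pseudocount of 10, 0 with no filter, 1 with no trend, 10 with sample weights, 14 at a mean of 500 or more and 0 to 3 with a library left out. The count of the 53 genes on the higher side at an unadjusted p under 0.05 was 7 in that model (4.03% of all genes). It was 9 in libraries 2 to 7 (2.91%), 0 in libraries 11 to 19 (2.13%) and 12 with equal totals (6.98%). With no trend it was 4 (3.54%), and with a library left out it was 2 to 13 (2.49 to 5.62%). The count on the lower side, 0 in that model, was 3 with age alone, 1 in libraries 2 to 7 and 0 to 2 with a library left out.

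Of 1362 values for single genes under alternatives, 92 in 23 genes turned their sign, and the cause was not tested. With age alone the log2 difference was 0.045 for Dnajc2, 0.31 for Dnajb14, 0.098 for Dnajc7, -0.71 for Dnajc22, 0.26 for Dnajc13, 0.20 for Dnajc10, -1.31 for Dnajc5b, 0.060 for Dnajb12, 0.076 for Dnajb7 and -1.81 for Dnajc5g. In libraries 11 to 19 it was -0.13 for Dnajb11, -0.14 for Dnajc12, -0.16 for Dnajc18, -0.062 for Dnajc22, 0.092 for Dnajc10, -0.30 for Dnajc5b, 0.10 for Dnajc6 and -0.0098 for Dnajc5g. In libraries 2 to 7 it was -0.042 for Dnaja4, 0.042 for Dnajc7, 0.39 for Dnajc24, -0.23 for Dnajc17, 0.13 for Dnajc16, -0.14 for Dnajc11, 0.029 for Dnajc27, 0.15 for Dnajb12 and 1.29 for Dnajb7. With equal totals it was 0.048 for Dnajc7, 0.053 for Dnajc13, 0.12 for Dnajc10, 0.11 for Dnajc16, 0.11 for Dnajc6, 0.11 for Dnajc27 and 0.11 for Dnajb12. With sample weights it was -0.27 for Dnajc22, 0.00059 for Dnajc13, -0.00087 for Dnajc4, 0.064 for Dnajc10, -0.12 for Dnajc5b and -0.16 for Dnajb3. With a pseudocount of 10 it was 0.0025 for Dnajb7, and with upper quartile scaling 0.0043 for Dnajc10.

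With a library left out, the log2 difference ran from -0.0067 to 0.23 for Dnaja4, -0.17 to 0.22 for Dnajb12, -0.37 to 1.23 for Dnajb3, -0.13 to 0.41 for Dnajb6, -1.003 to 0.94 for Dnajb7, -0.19 to 0.22 for Dnajc10, -0.092 to 0.17 for Dnajc11, -0.25 to 0.11 for Dnajc13, -0.082 to 0.030 for Dnajc16, -0.10 to 0.25 for Dnajc17, -0.21 to 0.38 for Dnajc22, -0.072 to 0.027 for Dnajc27, -0.090 to 0.14 for Dnajc4, -0.31 to 0.29 for Dnajc5b, -0.15 to 0.37 for Dnajc5g and -0.10 to 0.034 for Dnajc6.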

Other observations

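Several of the genes have annotated copies or neighbours whose reads the authors' counting could have split or shared, so their values are uncertain. The share of a transcript's 31-base stretches that also occur in another gene was 43.8% for Dnajb6, 37.7% for Dnajc19, 33.3% for Dnajc17, 23.7% for Dnajc2, 21.2% for Dnajc8, 20.7% for Dnaja1, 18.5% for Dnajc5b and 13.1% for Cct3. For Dnajc19 the most similar gene was the pseudogene Dnajc19-ps and for Cct3 the pseudogene Cct3-ps1, neither of which has a row in the table. Genes on the opposite strand overlap Cct6a (Psph), Cct7 (Pradc1), Cct8 (Usp16), Tcp1 (Mrpl18 and Acat3) and Dnajb13 (Ucp2), and without strand information reads of such pairs cannot be told apart.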
